A study of Mus musculus with 6 samples.

Results

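The S100 genes encode small calcium-binding proteins, and 9 of them were followed here through the livers of mice on a diet that lacks methionine and choline (MCD): S100a1, S100a4, S100a6, S100a8, S100a9, S100a10, S100a11, S100a13 and S100a16. They were taken by gene symbol from the deposited count table, as 9 of 40481 genes, and all 9 had enough reads to be tested. Liver RNA of male C57BL/6 mice was sequenced in 6 pools, 3 of control and 3 of Mttp-IKO animals. A pool joins the RNA of 3 to 4 mice and is the unit of replication here, and pooling makes the spread smaller than it is among single mice. The study asked whether blocking chylomicron assembly in the intestine alters the liver injury that the MCD diet causes.

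The Mttp-IKO animals were Mttp f/f Villin Cre ERT2 mice injected with tamoxifen (TAM), in which the Villin promoter directs Cre to the intestinal epithelium and Mttp, the gene of microsomal triglyceride transfer protein, is deleted there. The control animals, labelled wild type, were littermates that received vehicle instead. Both groups were 12 to 16 weeks old when the diet began, 3 weeks after the injections, ate it for 3 weeks and were fasted for 4 h or longer before the livers were taken. Tamoxifen and the deletion therefore went together in one group, and their parts in any difference cannot be told apart. The deletion lies outside the liver, so liver Mttp does not check the labels.

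Most S100 proteins bind calcium through a pair of EF-hand motifs, form dimers, and then attach to other proteins inside the cell, among them annexins, cytoskeletal proteins and myosin. Several also leave stressed or dying cells and act outside them as damage-associated molecular patterns, for which RAGE (Ager) and TLR4 are the best known receptors. In liver, S100A8 and S100A9 come mainly from neutrophils and monocytes, S100A4 from macrophages and fibroblast-like cells, and S100A10 and S100A11 from many epithelial and mesenchymal cells. In RNA of whole liver, fewer cells of a type and less RNA per cell cannot be told apart.

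All 9 genes lie on mouse chromosome 3 (GRCm38) in 2 groups. The first runs from S100a1 (90511034 to 90514392, minus strand) and S100a13 (90514435 to 90524581, plus strand) through S100a16 (90537254 to 90543151, plus), S100a4 (90603770 to 90606045, plus), S100a6 (90612894 to 90614414, plus) and S100a8 (90669071 to 90670034, plus) to S100a9 (90692632 to 90695721, minus). The second holds S100a11 (93520488 to 93526287, plus) and S100a10 (93555080 to 93564643, plus). Their mRNAs are short, with exon lengths of 392 nt for S100a8 to 1617 nt for S100a16, which matters below because 1 pool was low in short mRNAs.

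Sequences were chosen to show where the study measured these genes and how their start sites are built. S100a1 and S100a13 stand head to head, and the whole stretch between their annotated starts, 42 bases at chr3:90514393-90514434 (GRCm38, plus strand), is shown because both genes, as placed above, start at its ends. The RefSeq promoter table puts the S100a1 start further inside that gene.
S100a1 to S100a13: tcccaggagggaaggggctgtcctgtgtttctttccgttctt
The next 3 stretches end at the base before the gene's start in the RefSeq promoter table (GRCm38; plus strand; motif in capitals), which for S100a11 lies 8 bases inside the gene as placed above: S100a11, at chr3:93520346-93520495, with the AP-1 motif TGANTCA; S100a4, at chr3:90603710-90603769, and S100a8, at chr3:90669011-90669070, each with the TATA box TATAAA.
S100a11: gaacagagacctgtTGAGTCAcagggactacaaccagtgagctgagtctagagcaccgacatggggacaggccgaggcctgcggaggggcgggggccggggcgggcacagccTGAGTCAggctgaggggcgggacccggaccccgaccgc
S100a4: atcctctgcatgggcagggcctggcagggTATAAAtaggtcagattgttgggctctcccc
S100a8: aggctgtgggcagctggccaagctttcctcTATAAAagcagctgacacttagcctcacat

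AP-1 is the Fos and Jun family of transcription factors, and the TATA box positions the transcription machinery. The RefSeq table held 9 promoters of 300 bases for 8 of the 9 genes, with 2 for S100a16. On both strands, TGANTCA, which reads alike on both, was in 2 of the 9 member promoters and in 7.81% of all 32851, with 2 matches in S100a11 and 1 in S100a16. TATAAA was in 3 of 9 (S100a4, S100a8 and S100a9) against 13.6% of all promoters. It lay at positions -31 and -30 from the start in S100a4 and S100a8, but at the start site itself (position 0) in S100a9. The C/EBP motif TTNCNNAA was in 2 of 9 (40.7% of all), GAGGAA in 4 of 9 (28.3%) and the GC box GGGCGG in 3 of 9 (35.7%). A match is a match of letters and no evidence of binding.

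The study's quantitative PCR primers for 3 of the genes show which exon each assay reads. The S100a4 product spans 59 nt of exon 2 (chr3:90605026-90605084, plus strand), the S100a9 product 62 nt of exon 3 (chr3:90692839-90692900, minus strand) and the S100a10 product 62 nt of exon 3 (chr3:93564285-93564346, plus strand), all in GRCm38 with GENCODE M21 transcripts.
S100a4 forward: ggaggaggccctggatgta
S100a4 reverse: caccctctttgcctgagtatttg
S100a9 forward: tcatggaggacctggacaca
S100a9 reverse: cagcatcatacactcctcaaagct
S100a10 forward: ctggaccagtgccgagatg
S100a10 reverse: agccctgccactagtgatagaaa
The S100a9 and S100a10 pairs matched only their own gene. The S100a4 pair also matched Gm42674, a gene model on the same strand that overlaps S100a4 and shares 47.4% of its 50-nt stretches, so the assay reads both. Gm42674 is not a gene of the deposited count table. S100a11 shared 41.1% of its 50-nt stretches with the near-identical copies Gm12854, Gm7665 and Gm29240, so reads that match several of them would not have been counted; how many were lost was not tested. Gm12854 had 71, 50 and 55 reads in control pools and 33, 20 and 6 in Mttp-IKO pools, and Gm7665 had 93, 39 and 44, then 20, 14 and 6. The other 7 genes shared no such stretch.

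The pools held 25271585 to 36238734 reads on genes. Levels are given in CPM, a gene's reads relative to those of its pool after TMM scaling, which sets the bulk of genes equal between pools. A count of 0 allows up to 3 reads, or 0.0743 to 0.126 CPM on this scale, for counting error only. Mttp-IKO pool 3, the shallowest, was low in short mRNAs: among protein-coding genes with a mean of at least 1 CPM, its level stood below the mean of Mttp-IKO pools 1 and 2 by a median log2 of -1.75 in 112 genes of 300 to 600 nt, -1.20 in 128 genes of 600 to 800 nt and -0.51 in 1795 genes of 1000 to 2000 nt, and above it by 0.18 in 6042 genes of 4000 nt or more. Control pool 2 carried genes of other tissues, with striated muscle markers summing to 941 CPM (122 in control pool 1 and 1.01 to 1.84 in the other pools). Looked up after values were seen, the epithelial keratins Krt13 and Krt4 stood there at 164.8 and 160.4 CPM, against at most 0.171 CPM elsewhere. Genotypes were compared with edgeR's quasi-likelihood test over all 17287 genes tested, with Benjamini-Hochberg adjusted p-values and a threshold of 0.05. The p-values measure the spread between pools only.

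S100 mRNAs together made up 190 to 210 CPM across control pools and 170, 120 and 59.7 CPM across Mttp-IKO pools 1, 2 and 3. S100a1, S100a10 and S100a11 supplied 75.0% to 81.8% of this in each pool. All 9 genes averaged lower in Mttp-IKO pools, with a median log2 fold change of -0.56 where the median of all 17287 genes was 0.0059. None of the 9 passed the threshold by edgeR, against 4.01% of all genes (694 called) and 3.09% called lower. At an unadjusted p under 0.05 there were 2 (S100a10 and S100a11), or 22.2% of the 9, close to the 23.01% of all genes at that level. DESeq2 called 1 of the 9, S100a11, where it called 11.5% of all genes, so this is about the background share. Limma-voom called 0, with 3 at an unadjusted p under 0.05, against 2.48% of all genes called. In 3 genes, S100a4, S100a6 and S100a10, every Mttp-IKO pool was below every control pool, an order found in 16.5% of all genes. Without Mttp-IKO pool 3, 8 of 9 averaged lower, with a median of -0.35. In that fit 0 of the 9 passed by edgeR, where 864 of all 17854 genes did. At an unadjusted p under 0.05 there was 1 of the 9, against 4685 of all 17854 genes.

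**Figure D1:**
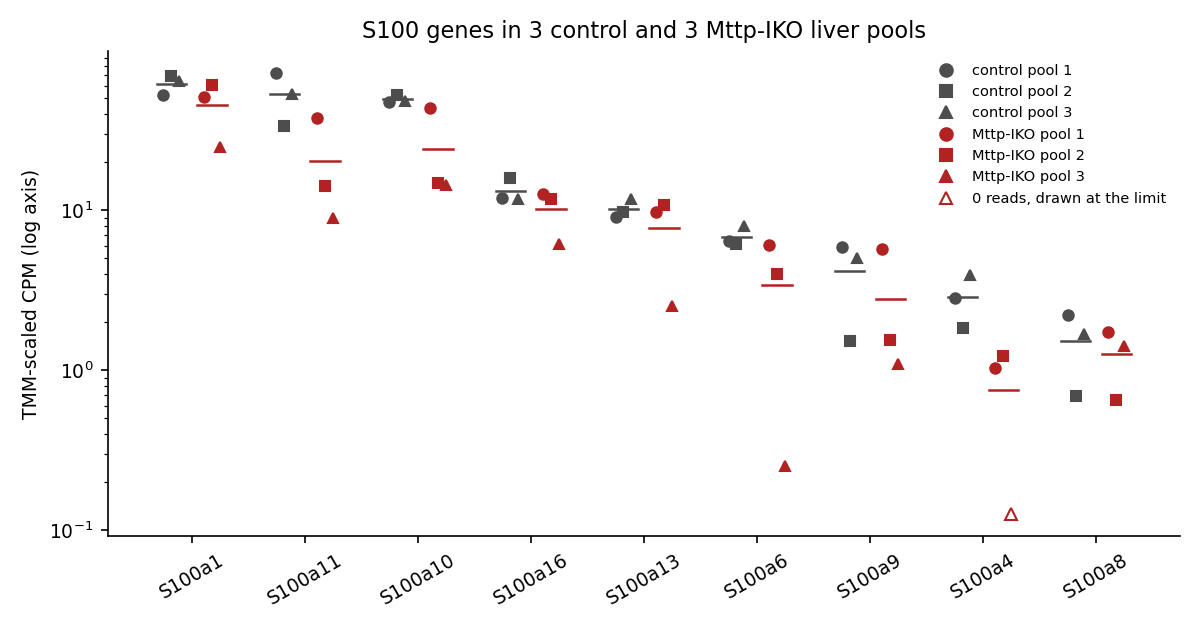
TMM-scaled CPM (log axis) of the 9 S100 genes in control pools (dark) and Mttp-IKO pools (red), with the marker shape giving the pool number and a bar the mean of 3 pools. S100a10 lies at 47.2 to 52.4 CPM across control pools and at 43.7, 14.7 and 14.4 CPM across Mttp-IKO pools, and the open triangle marks S100a4 with 0 reads in Mttp-IKO pool 3, drawn at the limit of 0.126 CPM.

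Per kilobase of exon, S100a11 was the most abundant in control pools, at a mean of 104 CPM per kb, with S100a1 at 88.9, S100a10 at 40.6, S100a13 at 14.3, S100a6 at 9.50, S100a16 at 8.17, S100a9 at 7.98, S100a4 at 4.87 and S100a8 at 3.90. S100a11 ranged from 65.3 to 141 CPM per kb and S100a1 from 75.8 to 98.9, so their order was not settled. The ranges over control pools separated S100a1 from S100a10, S100a10 from S100a13 and S100a13 from S100a6. From S100a6 down, each range overlapped that of the next gene. In Mttp-IKO pools the mean per kb was highest for S100a1 (65.9), followed by S100a11 (39.7) and S100a10 (20.02).

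S100a8 and S100a9, the subunits of calprotectin, are the family's best known damage signals. S100a8 had 2.20, 0.692 and 1.68 CPM across control pools 1 to 3 and 1.74, 0.651 and 1.42 CPM across Mttp-IKO pools 1 to 3. The groups overlapped throughout, with pool 2 lowest in each. The log2 fold change of S100a8 was -0.27 (SE 0.513, adjusted p = 0.795, edgeR), and its sign turned without control pool 1 (0.085) or without Mttp-IKO pool 2 (0.052). S100a9 had 5.92, 1.52 and 5.05 CPM across control pools and 5.76, 1.54 and 1.09 CPM across Mttp-IKO pools. Mttp-IKO pool 1 was as high as the upper control pools, and Mttp-IKO pools 2 and 3 stood near control pool 2. The log2 fold change of S100a9 was -0.56 (SE 0.685, adjusted p = 0.661, edgeR). It was -0.19 (SE 0.682, adjusted p = 0.890, edgeR) without Mttp-IKO pool 3 and -1.66 (SE 0.602, adjusted p = 0.160, edgeR) without Mttp-IKO pool 1.

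Reads of S100a9 outnumbered those of S100a8 by 2.20 to 3.32 times in 5 pools, whereas Mttp-IKO pool 3 had 26 reads of S100a9 and 34 of S100a8, a ratio of 0.765. S100a8 was also the only member that was not lower in Mttp-IKO pool 3 than in the mean of Mttp-IKO pools 1 and 2 (log2 0.24), although it is the shortest, and 97.3% of the 112 genes of 300 to 600 nt were lower on that measure.

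Of 14 neutrophil markers, 7 had enough reads to be tested and 0 passed the threshold by edgeR, with 1 at an unadjusted p under 0.05 (Csf3r). Their summed level was 209 to 1012 CPM across control pools and 263 to 1013 CPM across Mttp-IKO pools, nearly all of it Lcn2, which hepatocytes also make. Ly6g, a defining marker, had 0 reads in every control pool and at most 0.0966 CPM across Mttp-IKO pools, and Elane, Mpo, Camp, Ltf and Ngp were at or below 0.405 CPM in every pool. The other markers with the highest levels were Csf3r (17.8, 10.9 and 17.9 CPM across control pools, 10.2, 8.77 and 12.4 CPM across Mttp-IKO pools) and Mmp9 (3.74, 1.63 and 1.62 CPM, then 3.61, 1.54 and 2.26 CPM).

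Cxcr2 and Retnlg, a chemokine receptor and a granule gene of neutrophils picked after their values were seen, had a similar pattern over the pools. Cxcr2 had 1.68, 0.609 and 1.31 CPM across control pools and 1.42, 0.617 and 0.796 CPM across Mttp-IKO pools. Retnlg had 1.26, 0.415 and 0.811 CPM across control pools and 1.71, 0.685 and 0.670 CPM across Mttp-IKO pools. Pool 1 of each genotype was high and pool 2 low in S100a8, S100a9, Cxcr2 and Retnlg. In each of these genes the range within either genotype was wider than the difference of the group means. Other markers of the list differed among themselves. Mmp9 was also highest in pool 1 of each genotype. Lcn2 was higher in Mttp-IKO pool 2 (1000 CPM) than in Mttp-IKO pool 1 (891 CPM), and Camp, with few reads, was highest in pool 2 of both genotypes. Csf3r was higher in Mttp-IKO pool 3 than in Mttp-IKO pool 1. The part of neutrophils in the S100a8 and S100a9 levels was not tested.

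S100a4, which binds non-muscle myosin and marks macrophages and fibroblast-like cells, had the log2 fold change farthest from 0 among the 9 with all pools. It had 2.82, 1.83 and 3.93 CPM across control pools and 1.03, 1.23 and 0 CPM across Mttp-IKO pools. All control pools were above all Mttp-IKO pools. Mttp-IKO pool 3 gave 0 S100a4 reads where pools 1 and 2 gave 32 and 36. Over all pools the log2 fold change was -1.89 (SE 0.828, adjusted p = 0.222, edgeR), and the exact permutation p was 0.1, the smallest that 3 pools against 3 allow. Without Mttp-IKO pool 3 it was -1.33 (SE 0.386, adjusted p = 0.0931, edgeR). With control pool 2 left out as well, in a fit added after the data were seen, it was -1.58 (SE 0.321, adjusted p = 0.0238, edgeR). That fit called 2146 of all 17444 genes, against 694 of 17287 in the fit with all pools.

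Myh9, the heavy chain of the myosin that S100A4 binds, had 742 ± 114 CPM in control and 489 ± 76.1 CPM across Mttp-IKO pools (SD, n = 3; log2 fold change -0.60, SE 0.205, adjusted p = 0.137, edgeR). Of 12 markers of recruited macrophages, a source of S100A4, 7 passed the threshold, all lower, with a median log2 fold change of -2.02. Over all genes 4.01% were called and 3.09% called lower. The highest of the 12, by level, were Fn1, which hepatocytes also make (2875 ± 385 against 4368 ± 553 CPM, adjusted p = 0.159, edgeR), Gpnmb (436 ± 229 against 80.1 ± 42.7 CPM, adjusted p = 0.0587, edgeR) and Lyz2 (285 ± 97.0 against 81.9 ± 21.4 CPM, adjusted p = 0.0285, edgeR). Of these only Lyz2 passed, and Fn1 averaged higher in Mttp-IKO pools. Because of Fn1 the sum of the list was not lower (3747 to 4192 against 3926 to 4974 CPM). Of 10 stellate cell markers 6 passed, all lower, with sums of 897 to 1584 against 487 to 548 CPM. The macrophage and stellate lists were not counted on leaving out pools. Calls over all genes shrank to 24, 21 and 0 without control pool 1, control pool 3 or Mttp-IKO pool 2. The part of macrophages and stellate cells in the S100a4 level was not tested.

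S100a6, also called calcyclin, had 6.39, 6.15 and 7.95 CPM across control pools and 6.05, 3.97 and 0.251 CPM across Mttp-IKO pools. The groups did not overlap, but Mttp-IKO pool 1 lay close to control pool 2, and Mttp-IKO pool 3 had 6 reads against 116 and 188 in the others. S100a6 had a log2 fold change of -0.98 (SE 0.741, adjusted p = 0.466, edgeR), and without Mttp-IKO pool 3 it was -0.44 (SE 0.245, adjusted p = 0.3001, edgeR). In Mttp-IKO pool 3 S100a6 was 14.6-fold below the mean of Mttp-IKO pools 1 and 2, and only 0.781% of the 128 genes of 600 to 800 nt were lower still. Its binding partner Cacybp, the calcyclin-binding protein, had 15.1 ± 2.14 and 15.4 ± 4.34 CPM (SD, n = 3 pools per group; log2 fold change 0.031, SE 0.231, adjusted p = 0.953, edgeR).

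**Figure D2:**
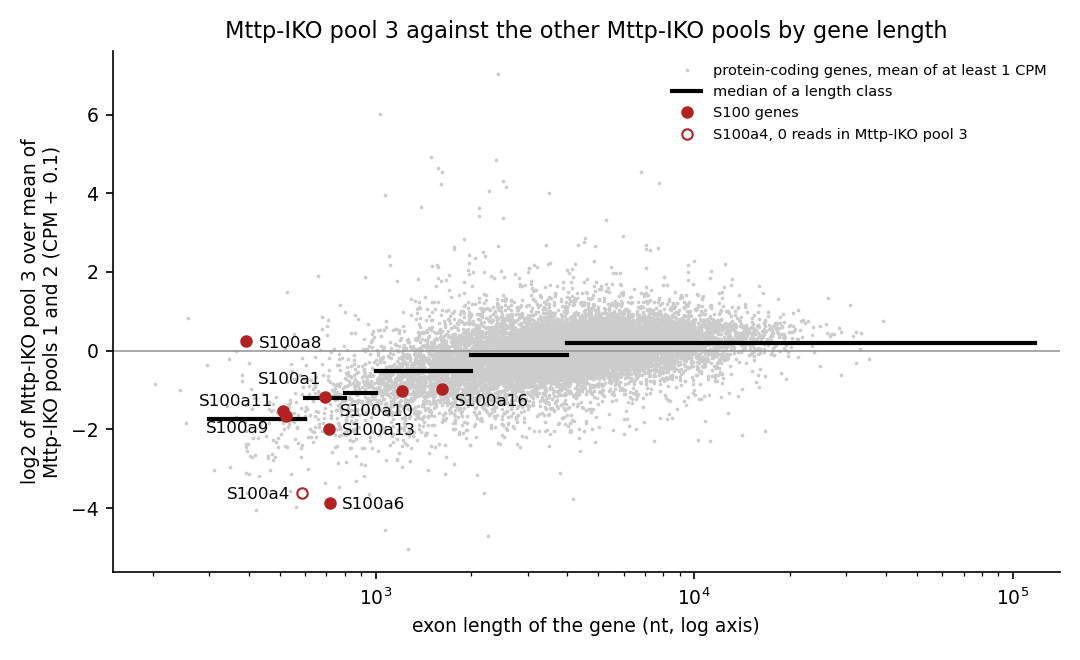
Log2 ratio of Mttp-IKO pool 3 to the mean of Mttp-IKO pools 1 and 2 (CPM with 0.1 added) against exon length (nt, log axis) for protein-coding genes of at least 1 CPM (grey), with the median of each length class (black) and the S100 genes (red). The class medians climb from -1.75 at 300 to 600 nt to 0.18 at 4000 nt or more, with S100a6 and S100a4 far below theirs and S100a8 above.

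S100a10 and S100a11 are the annexin partners: S100A10 forms a complex with annexin A2 that brings plasminogen and its activators to the cell surface, and S100A11 binds annexin A1. S100a10 had 47.2, 52.4 and 48.0 CPM across control pools and 43.7, 14.7 and 14.4 CPM across Mttp-IKO pools. The control pools were close together, and only Mttp-IKO pool 1 was near them. S100a10 had a log2 fold change of -1.02 (SE 0.410, adjusted p = 0.190, edgeR). Without Mttp-IKO pool 3 it was -0.75 (adjusted p = 0.280, edgeR), and without Mttp-IKO pool 1 it was -1.76 (SE 0.157, adjusted p = 0.0264, edgeR), past the threshold. That last fit called 55 of all 17943 genes. It leaves out the Mttp-IKO pool nearest control and keeps pool 3, which was low in short mRNAs.

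S100a11 had 72.2, 33.4 and 53.1 CPM across control pools and 37.8, 14.1 and 8.97 CPM across Mttp-IKO pools. Mttp-IKO pool 1 exceeded control pool 2, so the groups overlapped, while Mttp-IKO pools 2 and 3 were below every control pool. S100a11 had a log2 fold change of -1.38 (SE 0.513, adjusted p = 0.164, edgeR), and the exact permutation p was 0.2. Without Mttp-IKO pool 3 it was -1.03 (adjusted p = 0.214, edgeR), and without Mttp-IKO pool 1 it was -2.20 (SE 0.378, adjusted p = 0.0613, edgeR). DESeq2 gave -1.37 with an adjusted p of 0.0445.

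Anxa2, the partner of S100a10, had 117.5, 60.5 and 83.8 CPM across control pools and 55.8, 16.2 and 12.99 CPM across Mttp-IKO pools. Its pools stood in the same order as those of S100a11 in both groups, with Mttp-IKO pool 1 highest of its group. The log2 fold change of Anxa2 was -1.62 (SE 0.540, adjusted p = 0.130, edgeR). It was -1.275 (adjusted p = 0.174, edgeR) without Mttp-IKO pool 3 and -2.58 (adjusted p = 0.0465, edgeR) without Mttp-IKO pool 1. Anxa1, the partner of S100a11, fell from 17.0, 10.2 and 16.9 CPM to 4.32, 4.25 and 3.02 CPM (log2 fold change -1.92, SE 0.264, adjusted p = 0.0181, edgeR). Unlike S100a11, it was as low in Mttp-IKO pool 1 as in pool 2.

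**Figure D3:**
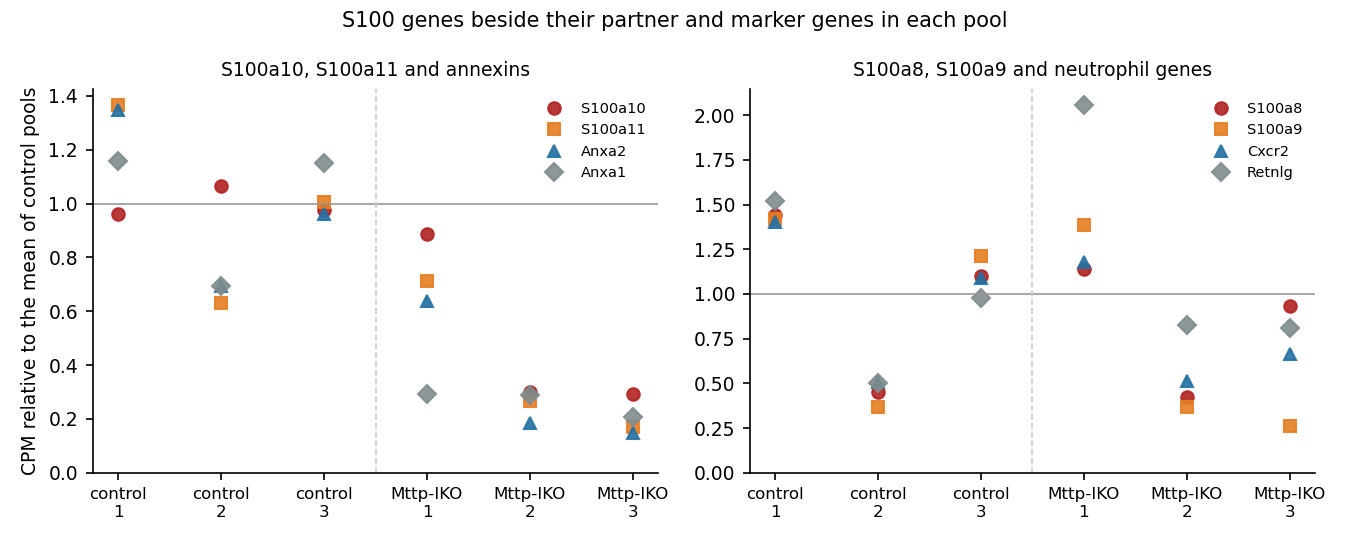
CPM of each gene relative to its mean over control pools (line at 1) in the 6 pools. On the left, S100a10 (43.7 CPM), S100a11 and Anxa2 stand higher in Mttp-IKO pool 1 than in Mttp-IKO pools 2 and 3 while Anxa1 is low in all 3, and on the right S100a8, S100a9, Cxcr2 and Retnlg are low in pool 2 of both genotypes.

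Among 14 partners of S100 proteins, all tested, 4 passed the threshold, all lower, and 10 averaged lower, with a median log2 fold change of -0.58 (0.0059 over all genes). Most of these partners are intracellular, but Plat and Plg act outside the cell. Beside Anxa1 these were Anxa5, another annexin (166 ± 29.0 to 60.9 ± 14.9 CPM, log2 fold change -1.44, adjusted p = 0.0208, edgeR), Ahnak, a large scaffold protein that the S100A10 and annexin A2 complex binds (223 ± 5.85 to 99.7 ± 7.74 CPM, log2 fold change -1.16, adjusted p = 0.0175, edgeR), and Plat, tissue plasminogen activator (5.71 ± 2.86 to 1.58 ± 0.446 CPM, log2 fold change -1.84, adjusted p = 0.0476, edgeR). These values are means ± SD of 3 pools. Plg, plasminogen, averaged higher in Mttp-IKO pools (1128 ± 299 against 2058 ± 257 CPM, log2 fold change 0.87, adjusted p = 0.0937, edgeR). Without control pool 1, control pool 3 or Mttp-IKO pool 2, 0 of the 14 passed by edgeR, with 6 at an unadjusted p under 0.05 each time, while the calls over all genes shrank to 24, 21 and 0.

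Among 11 receptors and adaptors through which extracellular S100 proteins act, 1 passed the threshold: Cd36, a scavenger receptor and fatty acid carrier, fell from 254.5 ± 74.9 to 102.6 ± 15.5 CPM (SD, n = 3; log2 fold change -1.31, SE 0.254, adjusted p = 0.0358, edgeR). The median of the list was 0.025, and 6 of 11 averaged higher. The others with the highest levels were Bsg (log2 fold change -0.35, adjusted p = 0.368, edgeR), Irak1 (0.25, adjusted p = 0.442, edgeR) and Ticam1 (0.52, adjusted p = 0.129, edgeR). Ager, the gene of RAGE, was scarce in both groups (1.25 ± 0.292 and 1.55 ± 0.253 CPM, adjusted p = 0.599, edgeR), and Tlr4 had 7.34 ± 2.08 and 4.95 ± 0.853 CPM (log2 fold change -0.56, adjusted p = 0.255, edgeR). The Cd36 call held without control pool 2 and was lost when any other single pool was left out, as without Mttp-IKO pool 3 (-1.26, adjusted p = 0.0536, edgeR), and with the replicate number as a block 0 of the 11 passed by edgeR, with 2 at an unadjusted p under 0.05.

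Of 12 other damage signals 11 were tested and 2 passed the threshold, both lower, with a median log2 fold change of -0.55. Vim, the intermediate filament vimentin of mesenchymal cells, fell from 153 ± 42.2 to 43.0 ± 11.5 CPM (SD, n = 3; log2 fold change -1.83, adjusted p = 0.0200, edgeR), and Lgals3, galectin-3 of macrophages, from 162 ± 76.7 to 44.2 ± 14.1 CPM (log2 fold change -1.88, adjusted p = 0.0483, edgeR). The classical alarmin Hmgb1 had 57.4 ± 6.43 and 61.8 ± 5.90 CPM (log2 fold change 0.11, adjusted p = 0.714, edgeR). Without Mttp-IKO pool 3 Vim alone passed, and Lgals3 was at -1.67 (adjusted p = 0.0792, edgeR). Without control pool 1, control pool 3, Mttp-IKO pool 1 or Mttp-IKO pool 2, 0 of the 11 passed by edgeR, with 3, 5, 5 and 6 at an unadjusted p under 0.05. The study named S100a4, S100a10, Tlr4 and Tnf among the mRNAs altered in its RNA-Seq, so their direction here is no independent evidence. It also reported quantitative PCR of these genes, under a figure title of attenuated damage-signal expression. Those measurements are separate from the counts used here and were not re-examined.

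**Figure D4:**
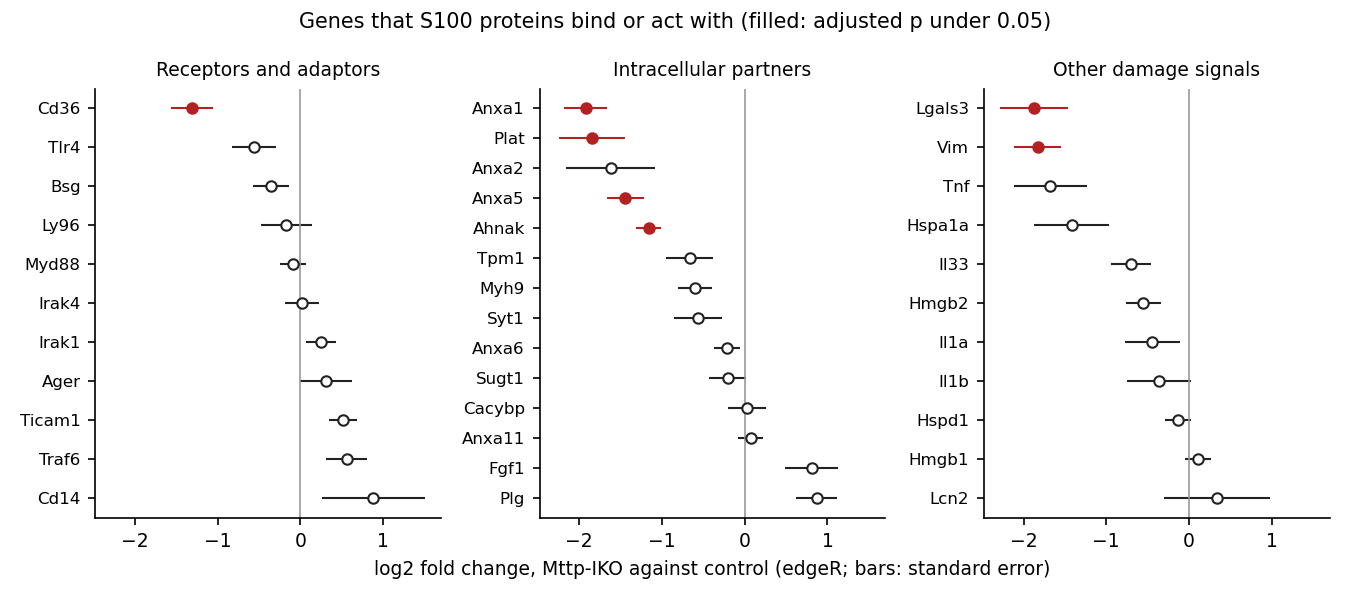
Log2 fold change of Mttp-IKO against control pools (edgeR, bars are standard errors) for 11 receptors and adaptors, 14 partners and 11 other damage signals, with filled red points for an adjusted p under 0.05. The panel titled intracellular partners also holds Plat and Plg, which act outside the cell. The 7 red points (Cd36, Anxa1, Plat, Anxa5, Ahnak, Lgals3 and Vim) all lie below 0.

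S100a1, S100a13 and S100a16 had log2 fold changes between -0.43 and -0.37, and only S100a8 (-0.27) was nearer 0. S100a1, best known as a regulator of calcium handling in heart and skeletal muscle, had 52.6, 68.7 and 63.9 CPM across control pools and 51.2, 61.0 and 24.9 CPM across Mttp-IKO pools. Mttp-IKO pools 1 and 2 lay within or just below the control range, and Mttp-IKO pool 3 was far below. Its log2 fold change of -0.43 (SE 0.304, adjusted p = 0.433, edgeR) became -0.13 (SE 0.152, adjusted p = 0.616, edgeR) without Mttp-IKO pool 3. Striated muscle markers were at 941 CPM in control pool 2, where S100a1 was highest, and at 1.404 CPM in control pool 3, where S100a1 was at 63.9 CPM. The part of muscle in the S100a1 level was not tested.

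S100a13, which takes part in the release of FGF1 and interleukin-1 alpha from stressed cells, had 9.09, 9.80 and 11.8 CPM across control pools and 9.72, 10.8 and 2.51 CPM across Mttp-IKO pools. Its log2 fold change was -0.41 (SE 0.453, adjusted p = 0.630, edgeR) with all pools and 0.0094 (SE 0.171, adjusted p = 0.979, edgeR) without Mttp-IKO pool 3. Its cargo gene Fgf1 averaged 65.5 ± 19.5 and 115 ± 45.9 CPM (SD, n = 3; adjusted p = 0.181, edgeR), and Il1a 3.69 ± 1.33 and 2.71 ± 0.480 CPM (adjusted p = 0.458, edgeR). S100a16 had 12.0, 15.8 and 11.8 CPM across control pools and 12.7, 11.8 and 6.16 CPM across Mttp-IKO pools (log2 fold change -0.37, SE 0.282, adjusted p = 0.470, edgeR), and -0.11 (SE 0.176, adjusted p = 0.733, edgeR) without Mttp-IKO pool 3. In all 3 genes Mttp-IKO pool 3 was the lowest of the 6 pools.

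**Figure D5:**
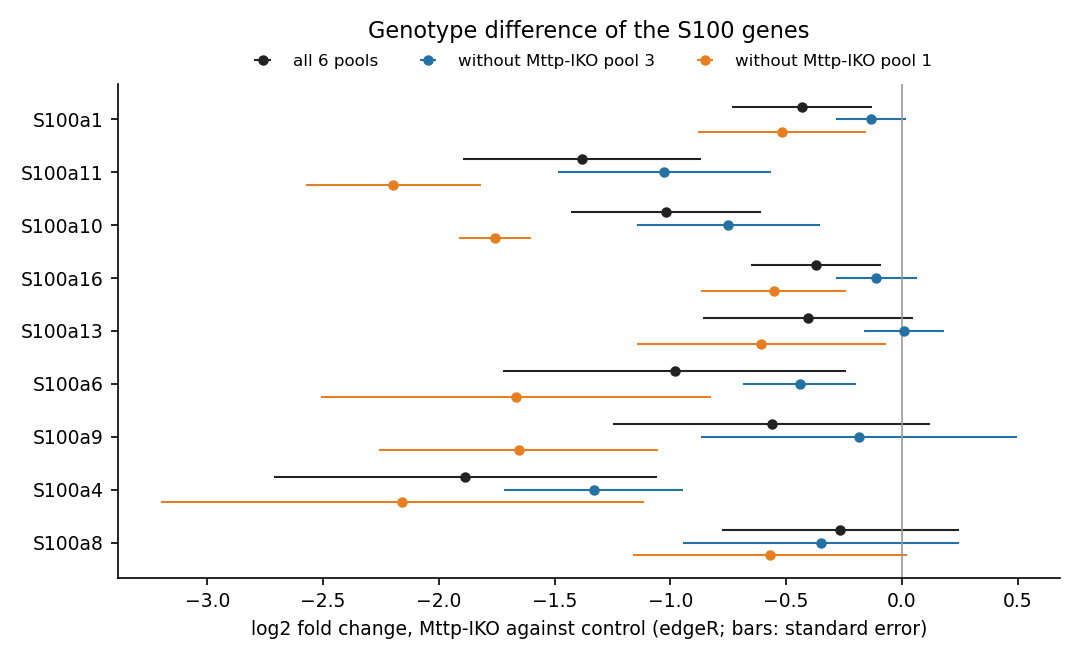
Log2 fold change of each S100 gene, Mttp-IKO against control (edgeR, bars are standard errors), with all 6 pools, without Mttp-IKO pool 3 and without Mttp-IKO pool 1. Leaving out pool 3 brings S100a1, S100a13 and S100a16 to between -0.13 and 0.0094, and leaving out pool 1 moves S100a10 to -1.76 and S100a11 to -2.20.

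Among neighbours and pairs, the levels of the head-to-head genes S100a1 and S100a13 had a Pearson r of 0.97 over the log2 CPM of the 6 pools, S100a4 and S100a6 0.96, S100a10 and S100a11 0.92, and S100a8 and S100a9 0.74. These 6 points share their libraries, and the low short mRNAs of Mttp-IKO pool 3 enter each of them, so they are descriptions only: 146 of 12713 protein-coding genes were more like S100a1 than S100a13 was. The gene most like each member was Rassf7 for S100a1 (r 0.999), Ntpcr for S100a4 (0.997), Ptma for S100a6 (0.999), Chmp4c for S100a8 (0.982), Slc24a3 for S100a9 (0.996), Mlec for S100a10 (0.997), Ccl2 for S100a11 (0.997), Svbp for S100a13 (0.999) and Dhrs4 for S100a16 (0.996), the best of 12713 genes each. Ccl2, the monocyte-attracting chemokine, had 8.74, 3.21 and 5.43 CPM across control pools and 3.25, 1.10 and 0.503 CPM across Mttp-IKO pools.

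Of the other mouse S100 genes looked up, S100g was the only one tested, at 1.11 ± 0.221 CPM in control and 0.978 ± 0.394 CPM across Mttp-IKO pools (SD, n = 3; adjusted p = 0.827, edgeR). S100a14, a gene of stratified epithelia, had 78 reads in control pool 2, 3 in Mttp-IKO pool 1 and 0 in the other pools, and S100a7a had 11 reads in control pool 2 and 0 elsewhere. Both thus stood out in the pool that carried Krt13 and Krt4. Of the members, S100a4, S100a6, S100a8, S100a9 and S100a11 had their lowest control level in that pool, and S100a1, S100a10 and S100a16 their highest. S100b had 0 to 10 reads per pool, S100a3 had 2 reads in 1 pool, S100a2 had 1 read in 1 pool, and S100a5 and S100z had 0 in all.

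Markers of other liver cells were counted beside these levels. Hepatocyte markers summed to 57220 to 93387 CPM in control and 113070 to 167678 CPM across Mttp-IKO pools, with 0 of 10 called and 3 at an unadjusted p under 0.05 (edgeR). Most of this sum was Alb, at a mean of 54086 CPM in control and 104640 CPM across Mttp-IKO pools (adjusted p = 0.157, edgeR). Of the 10, 8 averaged higher, while Ttr (3292 against 2249 CPM) and Trf (771 against 731 CPM) averaged lower. Cholangiocyte markers summed to 99.98 to 222 and 74.8 to 129 CPM, with 0 of 9 tested called and 3 at an unadjusted p under 0.05 (edgeR). Of 7 Kupffer cell markers 1 passed, Timd4, which was higher, and 4 had an unadjusted p under 0.05 (edgeR). Of the 7, 3 averaged higher and 4 lower, with a median log2 fold change of -0.19. Among the lower ones was Adgre1 (49.4 against 25.1 CPM, adjusted p = 0.0895, edgeR). The endothelial (7 tested), T and NK cell (8), B cell (5), erythroid (6) and small intestine (3) lists had 0 called by edgeR, and an unadjusted p under 0.05 in 0, 1, 3, 0 and 0 genes. Striated muscle had 0 of 3 called and 3 at that level.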

How the data were processed

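Liver RNA of 3 control and 3 Mttp-IKO pools was measured by RNA-Seq after depletion of ribosomal RNA. The authors aligned reads with STAR 2.5.1a to the Ensembl release 76 assembly (GRCm38) and deposited, for 41388 genes per pool, the count of uniquely aligned unambiguous reads from featureCounts 1.4.6-p5. The deposited CPM and RPKM values follow from these counts and were not tested. A table of all pools held the same counts for 40481 genes with symbols, after 276 repeated lines were dropped. Use of strand is not given in the sources used here.

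Counts were filtered by edgeR's filterByExpr (minimum count 10, minimum total 15), scaled by TMM (factors 0.899 to 1.11) and tested with glmQLFTest (edgeR 4.0.16, R 4.3.3) over 17287 genes. Groups were taken from the labels. Alternatives were RLE, upper quartile and total count scaling, other filters, DESeq2 1.42.0, limma-voom 3.58.1, a replicate block, removal of a loess trend with gene length (span 0.3) and leaving out pools. The article names no differential test. On simulated counts of 16884 genes edgeR recovered 17 of 100 genes changed 2-fold and 87 of 100 changed 4-fold, with 3 unchanged genes called. DESeq2 recovered 56 and 96 but called 40 unchanged genes, and limma-voom recovered 15 and 84 with 2 unchanged genes called. The simulated counts held no length trend like that of Mttp-IKO pool 3.

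The members and lists were chosen with earlier results of these data known. Named genes are all 9 members, other S100 genes with reads, every receptor, partner and damage signal past the threshold or up to 4 per list by mean CPM, up to 3 markers per cell list, the gene most like each member, and, picked after values were seen, Anxa2, Plg, Myh9, Cacybp, Fgf1, Il1a, Ager, Tlr4 and Hmgb1. Figures were drawn with matplotlib 3.10.9.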

Additional observations from a re-analysis of the deposited data

How the results depend on the processing

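Of 171 values of the members' log2 fold changes under alternatives, 162 kept direction and side of the threshold, 4 passed it and 5 changed sign, none of the 5 past the threshold by edgeR. The sign changes were S100a8 without control pool 1 (0.085) or Mttp-IKO pool 2 (0.052; -0.63 to 0.085 on leaving out each pool), S100a13 without Mttp-IKO pool 3 (-0.73 to 0.0094) and with the length trend removed besides (0.11), and S100a16 without control pool 2 and Mttp-IKO pool 3 (0.031); both fits that leave out pool 3 in combination were added after the data were seen.

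The count of members past the threshold was 0, and 1 with DESeq2 (S100a11), 1 with the length trend removed and a replicate block (S100a11), 1 without control pool 2 and Mttp-IKO pool 3 (S100a4), and 0 to 1 when each pool was left out (S100a10, without Mttp-IKO pool 1). The count of members below every control pool was 3, with 6 by total counts, which shifts the median of all genes to -0.17, and 3 to 5 on leaving out pools. The share over all genes, 16.5% in the main setting, was not counted under these alternatives. With fewer pools such an order also arises more easily, so the higher counts cannot be judged. The receptor count of 1 became 0 with a replicate block, with the block and length trend, and with the length trend and pool 3 out, and was 0 to 1 on leaving out pools. The partner count of 4 ranged from 0 to 4 on leaving out 1 pool, and was 3 with limma-voom, 5 with a replicate block, 6 with DESeq2, 6 with the block and length trend, and 5 without control pool 2 and Mttp-IKO pool 3, with Plg called higher in the last 3. The damage-signal count of 2 was 4 with DESeq2, 1 with limma-voom, 1 with a replicate block, 1 with the length trend removed and pool 3 out, and 0 to 2 on leaving out pools. The cause of these moves was not tested. Over all genes, 694 calls became 1995 with DESeq2, 428 with limma-voom, 1015 with total counts and 990 without a filter, and 0 to 892 on leaving out 1 pool. They became 797 with the block and length trend, and 2146 without control pool 2 and Mttp-IKO pool 3.

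Pools with the same number are separate animals, and their deviations correlated at 0.14, 0.11 and 0.0070, so they were not taken as pairs; all but Mttp-IKO pool 3, which correlated best with control pool 2 (0.021), correlated best with their own number, a hint from the data only. The replicate block gave 595 calls over all genes and 0 of 9 members (S100a11 at -1.56, adjusted p = 0.0521, edgeR). Depth limits S100a4 and S100a8 most, with 0 to 126 and 19 to 89 reads per pool.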

Other observations

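Across the 9 S100 genes the Mttp-IKO pools did not deviate alike. Mttp-IKO pool 1 held 5269 S100 reads, at 170 CPM, and lay inside the control range in S100a8, S100a9, S100a11, S100a13 and S100a16. Mttp-IKO pool 2 was below all control pools in S100a4, S100a6, S100a8, S100a10, S100a11 and S100a16, and Mttp-IKO pool 3 in every member but S100a8. The S100a11 to S100a10 ratio of CPM was 1.53, 0.637 and 1.11 in control pools and 0.864, 0.956 and 0.624 in Mttp-IKO pools, so the groups overlapped in that ratio. Krt8, a keratin of hepatocytes and bile ducts looked up after values were seen, followed S100a10 in being highest in Mttp-IKO pool 1 among its group (504, 391 and 396 CPM across control pools, then 299, 109.6 and 127 CPM; adjusted p = 0.0994, edgeR).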
